A study of Mus musculus with 6 samples.

Results

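The transcriptome of OT-I T cell cultures given an isotype control was described 48 h after stimulation with the SIINFEKL peptide. The members were the 2 libraries whose names carry the isotype label, replicates 1 and 4, of 6 libraries in the series, and every gene in their count tables was read apart from the 92 ERCC spike-in transcripts. The series compared OT-I cells activated by SIINFEKL on antigen-presenting cells and exposed to BiTS, to BiTS(mut) or to the isotype control. Each of the 3 groups has 2 libraries, and the other 4 libraries were not used here. All groups share the OT-I genotype, the peptide and the 48 h time point. The labels name splenocytes as the tissue and naive primary CD8 T cells as the cell type, and they do not state the age or sex of the mice, the peptide dose, or whether replicates 1 and 4 were separate cultures or separate animals. With no second condition there is no treatment contrast. With 1 library on each side of every comparison between replicates, no gene was tested, so levels and ratios are descriptions.

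OT-I mice carry rearranged T cell receptor transgenes whose product recognises the SIINFEKL peptide of ovalbumin on the class I molecule H-2Kb. Peptide recognition takes a resting CD8 T cell into the cell cycle, raises nutrient uptake, glycolysis and ribosome production, and starts the making of cytotoxic granules and cytokines. An isotype control is an antibody of the same class as a test reagent without its specificity. Whole spleen also holds B cells, dendritic cells, macrophages, red cell precursors and other cells, and a bulk library mixes the RNA of whatever the culture contained.

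Genes were given 11635669 counts in replicate 1 and 11104184 counts in replicate 4. The spike-in transcripts, synthetic RNAs added to a sample, took a further 4.03% and 5.38% of all counts. Of 49671 genes, 12447 reached 1 count per 1000000 gene counts (CPM) in both libraries and are called detected, of which 11210 were protein-coding. A count of 0 allows up to 3 counts, or 0.258 CPM in replicate 1 and 0.270 CPM in replicate 4. Levels of different genes are compared below as transcripts per 1000000 (TPM), which divide counts by the exon length in the deposited tables. Each pair of values gives replicate 1 and then replicate 4. The median detected gene was at 19.7 and 16.0 TPM. Since the ratio of TPM between the libraries was 0.89 times the ratio of CPM for each gene, differences between the libraries are given as ratios of CPM after TMM scaling, which takes most genes to be equal, among the 10227 genes with a mean of at least 5 CPM. Of these, 78.9% were within 1.5-fold, and the middle 50% of log2 ratios, replicate 4 over replicate 1, ran from −0.34 to 0.27. Pearson's r of log2 CPM was 0.97 over the detected genes, a correlation across genes, which are not independent of each other. Counts of the libraries nevertheless differed by more than sampling noise, with a chi-square of 34.7 per degree of freedom over 15042 genes, so they were not the same library deposited again.

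**Figure D1:**
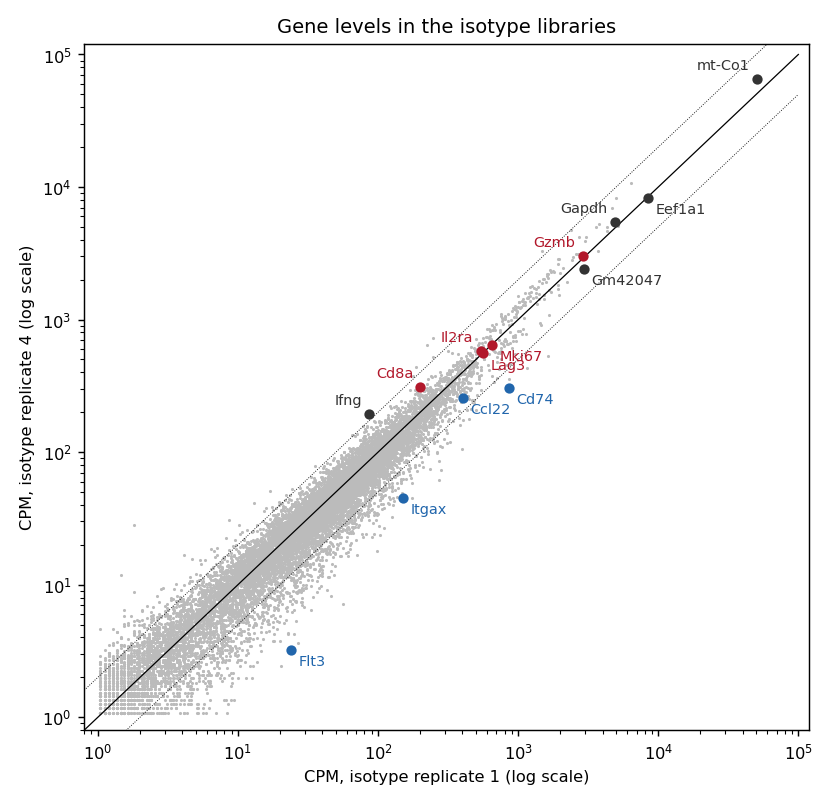
Each grey point is 1 detected gene, with its CPM in isotype replicate 1 on the x axis and in replicate 4 on the y axis, both on log scales; the solid line marks equal CPM and the dotted lines 2-fold differences. Gzmb, Il2ra, Mki67 and Lag3 (red) lie near the line of equality, while Cd74, Itgax and Flt3 (blue) lie under the lower dotted line.

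The 5 genes chosen to mark the activated culture were all well expressed. Gzmb, which encodes the granule protease granzyme B and lies at chr14:56258856-56262260 on the minus strand, was at 5459 and 5022 TPM, a mean of 5240.3 ± 309 (SD, n = 2), above 99.9% of detected genes. Among nuclear protein-coding genes other than those of ribosomal proteins, only Eef1a1 had more. Lag3 (chr6:124904361-124911705, minus strand), an inhibitory receptor for class II and other ligands, was at 713 and 625 TPM. Il2ra (chr2:11642807-11693193, plus strand), the chain that gives the interleukin-2 receptor its high affinity, was at 252 and 241 TPM. Cd8a (chr6:71373427-71379173, plus strand), the CD8 alpha chain, was at 147 and 201 TPM, and Mki67 (chr7:135689784-135716361, minus strand), made by cycling cells, at 173 and 153 TPM. All 5 stood above 94.1% of the detected genes. Gzmb, Il2ra, Mki67 and Lag3 differed by at most 1.13-fold between the libraries, and Cd8a was 1.61-fold higher in replicate 4 (95% counting interval 1.53 to 1.70).

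The counts were concentrated in few genes. By mean CPM, 699 genes held 50% of all counts. Of the 20 genes with the highest CPM, 7 were mitochondrially encoded and 4 encoded ribosomal proteins. The others made translation elongation factors (Eef1a1, 8518 and 8316 CPM, and Eef2, 5146 and 5066), actin (Actb, 4339 and 5001), the chaperone Hsp90ab1 (4302 and 4648), the glycolytic enzymes Gapdh (4882 and 5456), Pkm, Ldha and Eno1, and granzyme B (2896 and 2999). Per length, 9 of the top 20 were mitochondrially encoded and 8 encoded ribosomal proteins, and 11 genes stood in both top lists. The ribosomal proteins among them were led by Rplp1 (8976 and 11191 TPM) and Rps12 (9041 and 11015 TPM). With mitochondrial genes and those with Rpl or Rps symbols set aside, the leading nuclear protein-coding genes were Eef1a1 (9134 and 7920.3 TPM), Gzmb, the actin-binding thymosins Tmsb10 (4408 and 4594) and Tmsb4x (3335 and 2789), Actb (4329.7 and 4432), Eef2 (4441 and 3883), Hsp90ab1 (3835 and 3679.9), Fau, which encodes a ribosomal protein fused to a ubiquitin-like one (3173 and 3451), and Gapdh (3158 and 3134). Next came the class I genes B2m and H2-K1, the nuclear acidic protein gene Ptma (2597 and 2325), and the cytokine gene Mif (2185 and 2387). In this group Cst3, the secreted protease inhibitor cystatin C, stood apart by differing 2.56-fold between the libraries, at 2446 and 811 TPM. Its log2 ratio of −1.36 lay near the median of the dendritic cell genes described below (−1.17). The share of Cst3 transcripts from dendritic cells was not tested.

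Gm23935, a gene model of 57 bases at chr16:11144125-11144181, ranked 2 by TPM with 11560.0 and 30164, although it drew only 2868 and 8041 counts. Each of its 50-base windows also occurs in a transcript of another gene, and a short length multiplies a count into a high TPM. Gm23935 was 1 of 6 genes listed as lying on or resembling ribosomal RNA, which together took 0.281% and 0.575% of counts. The 6 include the protein-coding gene Lars2 (2591 and 7094 counts), and how many of its counts are ribosomal RNA was not tested. In this set CT010467.1, annotated as ribosomal RNA on chromosome 17, had the most counts, with 1482 and 3300.4 CPM. Among long noncoding RNAs, Gm42047 (chr8:121833247-121841178, plus strand) had the most counts, 2967 and 2406 CPM, a level like that of Gzmb by this measure. Per length, Gm10076 (1481 and 1786 TPM), a gene model of 384 bases, led. It was ahead of Gm42047 (1405 and 1012), 2410006H16Rik (1141 and 1021) and the miR-142 host gene Mir142hg (667 and 783). The snoRNA host gene Gas5 (449 and 477) and the nuclear RNA Malat1 (347 and 315) followed. The windows of these noncoding genes were not searched, so whether they share sequence with other genes was not tested.

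The 13 messenger RNAs of the mitochondrial genome, which encode core subunits of the respiratory chain and of ATP synthase, took 6.97% and 9.39% of counts. The gene of cytochrome oxidase subunit 1, mt-Co1, alone held 5.04% and 6.50%, with 87204 and 99814 TPM. Of the complex I genes, mt-Nd1 (14043 and 20409 TPM), mt-Nd2 (7057 and 9620.1), mt-Nd5 (6901 and 9032), mt-Nd6 (4737 and 5615) and mt-Nd4 (3826 and 4966) were high, and so was the cytochrome b gene mt-Cytb (8839 and 10955). The other 6 were far lower. Cytochrome oxidase subunits 2 and 3 read 71.9 and 72.5 TPM (mt-Co2) and 106 and 130.1 TPM (mt-Co3), although they are subunits of the same complex as mt-Co1. Of the ATP synthase genes, mt-Atp6 read 29.4 and 48.7 TPM and mt-Atp8 60.8 and 69.2 TPM. The remaining complex I genes were mt-Nd3, at 469 and 526 TPM, and mt-Nd4l, at 131 and 130.3 TPM. The 13 genes had a median log2 ratio of 0.54 towards replicate 4, or 0.04 with libraries scaled to the ERCC counts.

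A stretch of chromosome 1 (chr1:24611535-24616197, mm10) holds 7 annotated pseudogenes that copy this part of the mitochondrial genome. The copies of mt-Co2 (Gm28661), mt-Atp6 (Gm10925), mt-Co3 (Gm28437) and mt-Nd4l (Gm10222) were 100% identical over the aligned bases, and that of mt-Nd3 (Gm28438) 99.7%. Gm29216 matched mt-Co1 at 98.8% of 492 bases, and Gm28439 matched mt-Nd4 at 100% of 876 bases. Accordingly, 100% of the 50-base windows of mt-Co2, 99.9% of mt-Co3, 99.5% of mt-Atp6, 98.8% of mt-Nd4l and 98.0% of mt-Nd3 occur in a transcript of another gene, against 51.1% of mt-Co1 and 62.2% of mt-Nd4. Windows of mt-Atp8 were found in no other annotated transcript. Sequence outside annotated transcripts was not searched, so whether the chromosome 1 stretch also copies mt-Atp8 was not tested. The following lines show a shared stretch: 90 bases of mt-Co1 (chrMT:6581-6670, plus strand) and of Gm29216 (chr1:24615908-24615997, minus strand), from the GENCODE M21 transcripts on mm10, differ at no position.
mt-Co1: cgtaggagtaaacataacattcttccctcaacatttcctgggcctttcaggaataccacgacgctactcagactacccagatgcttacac
Gm29216: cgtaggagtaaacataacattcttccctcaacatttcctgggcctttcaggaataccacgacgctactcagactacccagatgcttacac
The pseudogenes themselves ran from 14.1 and 18.2 TPM for Gm10222 to 129 and 122 TPM for Gm29216. Gm10925 had 245 and 300 counts against 87 and 155 for mt-Atp6, and Gm28661 had 159 and 281 counts against 214 and 232 for mt-Co2. Gm10925 was thus above mt-Atp6 in both libraries, and Gm28661 was above mt-Co2 in replicate 4 only. The treatment of reads that match several places is not given in the sources used here. The levels of the copied genes are therefore uncertain, and the part of the copies in the low values was not tested.

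**Figure D2:**
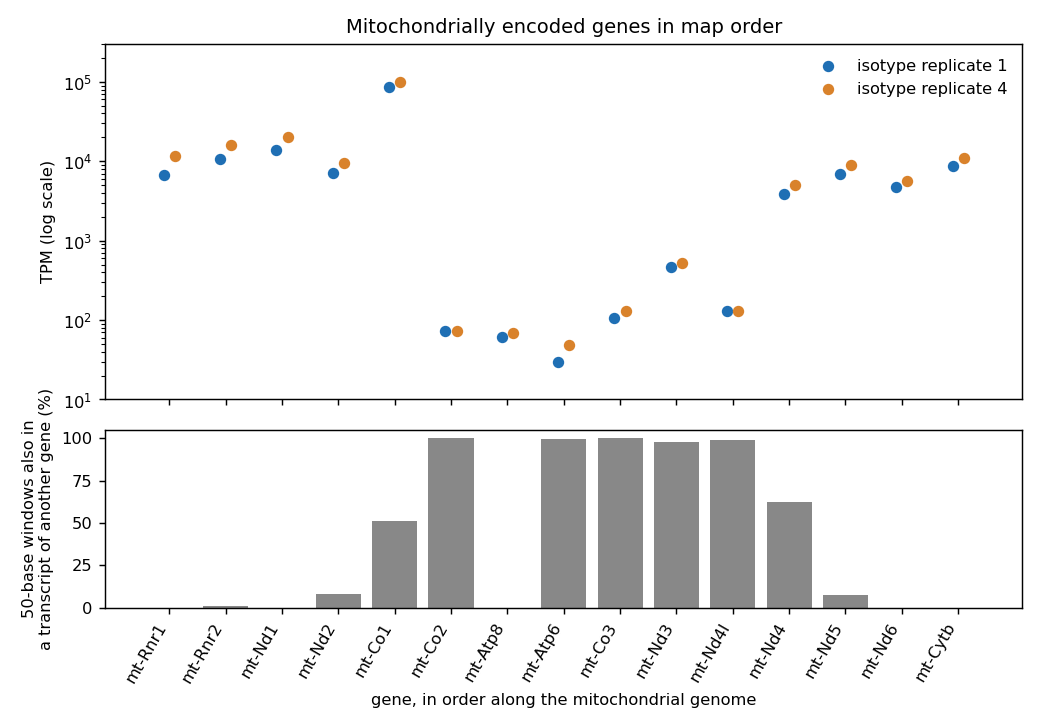
The upper panel shows TPM on a log scale for the 13 messenger and 2 ribosomal RNAs of the mitochondrial genome in each isotype library, in map order; the lower panel shows the percent of each gene's 50-base windows that occur in an annotated transcript of another gene. The genes from mt-Co2 to mt-Nd4l lie between 29.4 and 526 TPM. All of them but mt-Atp8 have at least 98.0% of their windows in an annotated transcript of another gene, and unannotated sequence was not searched.

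The counts of the receptor's beta chain fell almost wholly on 1 V segment. OT-I cells bear a receptor built from a V alpha 2 segment (Trav14 family) and a V beta 5 segment (Trbv12 family). Of the counts on the 35 Trbv segments, Trbv12-1 (chr6:41113550-41114067, plus strand) took 1694 of 1709 in replicate 1, or 99.1% (95% Wilson interval 98.6% to 99.5%), and 1696 of 1717 in replicate 4, or 98.8% (98.1% to 99.2%). Its neighbour Trbv12-2 took 6 and 4 counts. These segments are 88.3% identical over 385 bases. Their last 90 bases, from the GENCODE M21 transcripts on mm10, are shown to let a reader see how the segments of this family differ. Trbv12-1 spans chr6:41113978-41114067 and Trbv12-2 spans chr6:41119275-41119364, both on the plus strand, and capitals mark the 5 bases at which they differ.
Trbv12-1: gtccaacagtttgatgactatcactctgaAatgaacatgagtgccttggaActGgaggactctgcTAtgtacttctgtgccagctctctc
Trbv12-2: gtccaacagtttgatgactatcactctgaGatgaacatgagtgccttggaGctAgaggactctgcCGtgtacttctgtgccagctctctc
No such dominance was seen on the alpha chain. The 128 Trav segments drew only 139 and 169 counts in all, against 1545 and 1498 for the constant gene Trac, and the 9 segments of the Trav14 family took 16 (11.5%) and 26 (15.4%) of them. The Trav14 segments are 93.2% to 100% identical in their 36 pairs, and 4 of them share 100% of their windows with another gene, while Trav14-1 shares 4.86%. The part of this similarity in the low counts was not tested.

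All 21 genes of the receptor complex, its coreceptors and its proximal signalling were detected, with medians of 189 and 191 TPM. The constant genes Trbc1 (1612 and 1352 TPM), Trbc2 (1166 and 1246) and Trac (379.6 and 343) were high, although Trbc1 and Trbc2 share 40.5% and 44.0% of their windows with other genes. Among the CD3 chains, Cd3d read 201 and 252 TPM, Cd3g 106 and 112, Cd3e 78.4 and 71.4 and Cd247 (the zeta chain) 51.7 and 54.7. The CD8 beta chain gene Cd8b1, at 266 and 283 TPM, was 1.81 and 1.41 times Cd8a, whereas Cd4 was at 0.171 and 0.159 TPM, under the detection level. Lck, the kinase that rides on CD8, was at 569 and 446 TPM, the surface protein Thy1 at 299 and 443, the adaptor Lat at 205 and 264 and the kinase Zap70 at 189 and 153. The lowest member was the costimulatory receptor Cd28, at 26.8 and 16.4 TPM.

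Cytotoxic granule genes were dominated by Gzmb, which made up 99.7% and 99.5% of the TPM of the 10 granzyme genes listed. Gzmc reached 8.12 and 23.6 TPM, Gzmf 2.79 and 1.42 and Gzma 2.88 and 0, and Gzmd, Gzme, Gzmk and Gzmn had no count in either library. The pore-forming protein gene Prf1 was at 104 and 152 TPM, so Gzmb was 52.4 and 33.0 times Prf1 per length. The 4 listed serpins, of a family that inhibits granzyme B and related proteases, had medians of 274 and 147 TPM. Serpinb6b (1009.8 and 492 TPM) and Serpinb9 (496 and 255) were abundant in replicate 1 and less so in replicate 4. The lowest values among the 4 were 10.3 and 13.7 TPM. The granule proteoglycan Srgn was at 661 and 318 TPM and the granule membrane protein Nkg7 at 482 and 443. Of the death ligand genes, Fasl was at 18.9 and 27.2 TPM, near the median detected gene in replicate 1 and above it in replicate 4. Tnfsf10 (TRAIL) was low, at 2.23 and 1.30 TPM. In all, 20 of the 28 listed genes were detected, and of 19 with a ratio 1 (Gzmc) was at least 2-fold higher in replicate 4, where 1.10% of all genes with a ratio were. Ctsc and Lamp2, a cathepsin that activates granzymes and a lysosomal membrane protein, were at least 2-fold lower in replicate 4, where 5.47% of all genes were.

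Cytokine genes covered a wide range, and 23 of 34 listed cytokines and chemokines were detected. Mif was the highest at 2185 and 2387 TPM, although 50.9% of its windows occur in transcripts of other genes. Lymphotoxin alpha (Lta) was at 478 and 896 TPM and its membrane partner Ltb at 163 and 206. Interferon gamma (Ifng) was at 192 and 383 TPM and was 2.34-fold higher in replicate 4 (2.17 to 2.53), and Lta was 2.21-fold higher (2.11 to 2.31). These were the 2 of 19 genes with a ratio that were at least 2-fold higher there (1.10% of all genes), and 3 were at least 2-fold lower (5.47% of all genes), namely Tnfsf9 (2.37-fold), Cxcl16 (2.11-fold) and Cxcl9 (2.12-fold). Tnf read 97.7 and 108 TPM, Lif 80.4 and 121, Il3 102 and 74.1 and Csf2 5.74 and 10.7. Il2, the T cell growth factor, was at only 1.004 and 1.87 TPM in these 48 h cultures. The helper T cell cytokines Il4, Il5, Il13, Il17a, Il21 and Il22 each lay under 1 TPM in both libraries. Of the chemokines, Cxcl16 (179.9 and 72.3 TPM), Xcl1 (83.03 and 62.6), Cxcl9 (60.4 and 24.2), Ccl5 (42.6 and 40.5), Ccl3 (30.6 and 27.1) and Ccl4 (28.2 and 17.2) were detected.

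Cytokine receptors were led by a chain of the interleukin-2 receptor. This receptor's beta chain Il2rb was at 355 and 315 TPM, its alpha chain Il2ra at 252 and 241 and the common gamma chain Il2rg at 159 and 124. The interleukin-10 receptor Il10ra (198 and 175 TPM) stood above Il2rg in both libraries. Also expressed were Il21r (159 and 121), Il4ra (136 and 109), Il12rb2 (128 and 71.3) and Il7r (108 and 113). The interleukin-18 receptor Il18r1 was low and unequal, at 4.82 and 15.05 TPM. Ccr7, the receptor that leads cells into lymph nodes, was the highest of the 29 receptors listed, at 985 and 510.3 TPM. It was higher in replicate 1 (729 and 425 CPM), as were the dendritic cell genes described below. The share of Ccr7 transcripts that came from dendritic cells was not tested. Cxcr4 was at 190.0 and 52.4 TPM, 3.08-fold higher in replicate 1. The inflammatory chemokine receptors Cxcr3 (3.19 and 8.77 TPM) and Cxcr6 (2.26 and 0.664) were low.

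All 25 genes of activation and costimulation were detected. The costimulatory receptors of the TNF receptor family were high, with Tnfrsf9 (4-1BB) at 774 and 551 TPM, Tnfrsf4 (OX40) at 659 and 647 and Tnfrsf18 (GITR) at 529 and 579, well above Icos (38.9 and 31.7) and Cd28. Of the transcription factor genes that respond early to receptor signals, Junb was at 862 and 575 TPM, Myc at 367 and 412, Nr4a1 at 188 and 133 and Nr4a3 at 102 and 56.1. Lower than these were Egr1 (39.1 and 30.5), still above the median detected gene, and Egr3 (18.5 and 11.5), Egr2 (7.84 and 7.55) and Fos (18.7 and 5.36), which were below it. The early surface marker Cd69 was at 25.98 and 23.9 TPM. The adhesion receptor gene Cd44 was at 48.1 and 31.1 TPM.

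Inhibitory receptors were also transcribed. After Lag3 came Ctla4 (491 and 358 TPM), Tigit (204 and 136), Btla (75.3 and 51.9), Pdcd1, which encodes PD-1 (37.1 and 38.4), and Cd160 (6.52 and 6.72). Havcr2 (TIM-3) read 28.4 and 6.13 TPM and Cd244a 18.2 and 3.16, and both were lower in replicate 4, 3.93-fold and 4.89-fold. Their ligand genes Cd80 (148 and 87.5 TPM), Cd274, which encodes PD-L1 (107 and 39.8), Pdcd1lg2 (44.4 and 18.7) and Cd86 (33.3 and 12.03) are also made by antigen-presenting cells. Of 18 genes of this list with a ratio, 8 were at least 2-fold lower in replicate 4 (5.47% of all genes) and 0 were at least 2-fold higher (1.10% of all genes). Their median log2 ratio was −0.49 against −0.01 over all 10227 genes. The dendritic cell genes described below moved the same way, with a sum of 4113 TPM in replicate 1 and 1625 TPM in replicate 4. Their part in the inhibitory list was not tested.

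Of the 31 transcription factor genes listed, 30 were detected. Id2 was at 557 and 184 TPM, Bhlhe40 at 498 and 232, Irf8 at 403 and 261, Runx3, which fixes the CD8 lineage, at 236 and 144, Batf3 at 216 and 249, Hif1a at 214 and 99.9, Irf4 at 127 and 148 and Batf at 80.1 and 108. Of the T-box factor genes, Tbx21 (T-bet) was at 31.4 and 39.9 TPM and Eomes at 5.97 and 11.3. Prdm1, which encodes Blimp-1, a factor of terminal effector cells, was at only 5.19 and 2.80 TPM, Zeb2 at 1.67 and 0.879 and Tox at 4.20 and 3.71. Of the naive and memory factors, Tcf7 (TCF-1) was still at 120.1 and 107 TPM, Id3 at 68.4 and 33.4, Satb1 at 54.4 and 35.98, Foxo1 at 44.6 and 34.9, Lef1 at 20.3 and 18.5, Bach2 at 20.2 and 7.29 and Klf2 at 7.84 and 3.36. Foxp3, the factor of regulatory T cells, was low, at 0.230 and 0.322 TPM. It was the lowest of 4 listed factors of other lineages, of which 3 were detected. The highest values among those 4 were 45.2 and 29.1 TPM. Id2, Irf8 and Batf3 are also used by dendritic cells, and the share of these transcripts that came from such cells was not tested.

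**Figure D3:**
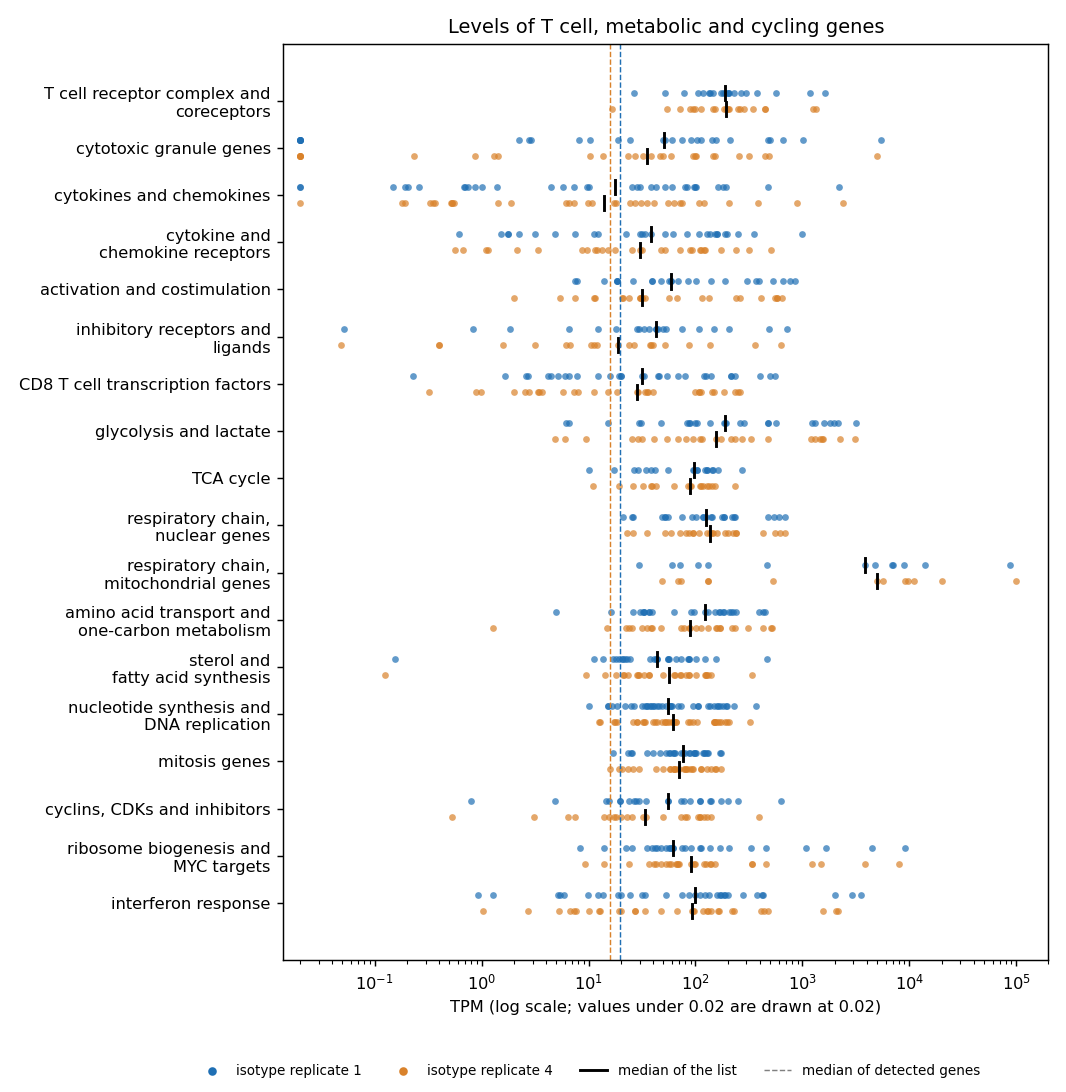
Each point is 1 gene of the list named on the y axis, with its TPM on a log x axis, in isotype replicate 1 (blue) and replicate 4 (orange); black bars are list medians and dashed lines the medians of all detected genes, 19.7 and 16.0 TPM. Every list but cytokines and chemokines has its median above the dashed line of its own library.

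Glycolysis genes stood far above the median gene. All 27 listed genes were detected, with medians of 188 and 155 TPM, and 15 of them were above 100 TPM in both libraries. Following glucose through the pathway, the transporter Slc2a1 (GLUT1) was at 286 and 213 TPM and Slc2a3 (GLUT3) at 192 and 109.8. Hexokinase 2 (Hk2, 188 and 155 TPM) made up 45.6% and 55.8% of hexokinase TPM, and Pfkp (476 and 274 TPM) 58.1% and 48.5% of phosphofructokinase TPM. The enzymes of the lower pathway were among the most abundant messenger RNAs of the cultures, with Aldoa at 1578 and 1208 TPM, Tpi1 at 1303 and 1455, Gapdh at 3158 and 3134, Pgk1 at 1814 and 1521, Eno1 at 1229 and 1301 and Pkm at 1970.2 and 1569. Pgk1 shares 53.9% of its windows with other genes. Lactate dehydrogenase was almost all of the A form, with Ldha at 2143 and 2239 TPM and Ldhb at 6.59 and 4.90 TPM, a share of 99.7% and 99.8%. The lactate exporter Slc16a3 (MCT4) was at 186 and 174 TPM. Of 26 genes with a ratio, 1 (Hk3, 88.3 and 28.7 TPM) was at least 2-fold lower in replicate 4, against 5.47% of all genes. At least 2-fold higher were 0, against 1.10% of all genes.

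Nuclear genes of mitochondrial metabolism were lower than those of glycolysis. The 19 genes of the TCA cycle had medians of 97.1 and 89.6 TPM, led by citrate synthase (Cs, 270.0 and 232 TPM), with Idh1, the cytosolic isocitrate dehydrogenase, lowest (10.03 and 11.1). The 25 nuclear genes of the respiratory chain and ATP synthase had medians of 126 and 137 TPM, led by Cox6a1 (686 and 687 TPM), Atp5b (609 and 618) and Cox4i1 (548 and 552). In none of these genes was replicate 4 lower by 2-fold (5.47% of all genes). In 1, Ndufa5 (48.3 and 87.6 TPM), it was higher by 2-fold (1.10% of all genes).

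Amino acid and lipid genes were expressed broadly. The glutamine and neutral amino acid carrier Slc1a5 was at 447 and 524 TPM, and the chains of the large neutral amino acid transporter at 215 and 219 (Slc7a5) and 224 and 154 (Slc3a2). In serine and one-carbon metabolism, the mitochondrial enzyme Shmt2 (432 and 429 TPM) made up 93.5% and 91.8% of Shmt1 plus Shmt2, and Mthfd2 was at 207 and 169, Phgdh at 239 and 313 and Psat1 at 181 and 159. Of the polyamine enzymes, Odc1 was at 392 and 512 TPM and Srm at 131 and 232. Of 28 sterol and fatty acid genes 27 were detected, the exception being the cholesterol exporter Abca1 (0.155 and 0.124 TPM). The desaturase Scd2 was highest at 469 and 335 TPM, the sterol regulator Srebf2 was at 155 and 140.1, and the fatty acid synthase Fasn at 43.2 and 81.4. Fasn and Dhcr7 were at least 2-fold higher in replicate 4 (1.10% of all genes) and the exporter Abcg1 at least 2-fold lower (5.47% of all genes). The median log2 ratio of the 27 genes was 0.50, but it was −0.00084 when libraries were scaled to the ERCC counts, a scaling that moved the median of all genes to −0.52.

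Replication and mitosis genes were all detected. The 40 genes of nucleotide synthesis and DNA replication had medians of 55.5 and 61.2 TPM. The sliding clamp Pcna was at 367 and 325 TPM, and the helicase subunits followed with Mcm3 (229.9 and 207), Mcm6 (198 and 152) and Mcm5 (161 and 166). The ribonucleotide reductase subunit Rrm2 was at 171 and 158 TPM, and Tyms of thymidine supply was lower (18.3 and 17.8). The 29 mitosis genes had medians of 76.2 and 70.9 TPM. The highest besides Mki67 were Cdc20 of the anaphase-promoting complex (121 and 173 TPM), which led in replicate 4, Top2a, which untangles chromosomes (169 and 154 TPM), the condensin subunit Ncapd2 (132 and 128), the ubiquitin-conjugating enzyme gene Ube2c (117 and 141), the spindle motor Kif11 (128 and 95.3) and Aurkb (122 and 113). The kinase gene Cdk1 was at 63.3 and 66.3 TPM, and its cyclin partners Ccnb1 at 76.2 and 79.5 and Ccna2 at 61.3 and 62.4. None of these replication and mitosis genes differed by 2-fold between the libraries. Of all genes with a ratio, 1.10% were at least 2-fold higher in replicate 4 and 5.47% at least 2-fold lower.

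Cyclins and inhibitors were less even. Ccnd2 (203 and 141 TPM) made up 69.6% and 61.9% of the D-type cyclins, with Ccnd3 at 73.00 and 80.3 and Ccnd1 at 15.7 and 6.49. Ccne1 was at 54.98 and 72.9 TPM, Cdk4 at 110.1 and 128 and E2f2 at 139 and 111. Genes of cell cycle inhibitors were present beside them, with Cdkn1a (p21) highest of the list at 635 and 396 TPM, Cdkn2a at 248 and 109 and Btg1 at 172 and 84.03. Cdkn1b (p27), at 88.9 and 32.6 TPM, and Ccnd1 were at least 2-fold lower in replicate 4. These were 2 of 23 genes with a ratio, against 5.47% of all genes, and 0 were at least 2-fold higher (1.10% of all genes). The replication-dependent histone genes, whose transcripts mostly end without a poly(A) tail, took only 0.0198% and 0.0209% of counts in 68 clustered genes. The highest of them was Hist1h2ao (154 and 263 TPM), below the polyadenylated variant genes H2afz (760.4 and 533) and H3f3b (335 and 335).

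Ribosome production was prominent. The 83 genes of cytosolic ribosomal proteins, 80 of them detected, took 8.75% and 11.3% of counts. Among nucleolar and processing factors, Npm1 was at 1673 and 1477 TPM, Ncl at 333 and 338, Nop56 at 205 and 335, Gnl3 at 138 and 152 and Fbl at 112 and 137. Of the translation factors, Eif5a was at 1087 and 1238 TPM and Eif4a1 at 459.9 and 459, and the largest subunit gene of RNA polymerase I, Polr1a, was at 22.4 and 23.8. The 80 ribosomal protein genes were all higher in replicate 4 by TMM-scaled CPM, with a median log2 ratio of 0.41 that became −0.09 with ERCC scaling. Of them 0 reached 2-fold, where 1.10% of all genes with a ratio did towards replicate 4. The 29 biogenesis genes had a median of 0.40, or −0.10 with ERCC scaling.

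Of 33 interferon-inducible genes listed, 32 were detected. The class I presentation genes were among the highest of the cultures, with B2m at 3562 and 2155 TPM, H2-K1 at 2937 and 2070.1, H2-D1 at 2007 and 1559, the immunoproteasome subunit Psmb8 at 422 and 436 and the peptide transporter Tap1 at 277 and 218. H2-K1 encodes the molecule that presents SIINFEKL. Of the GTPase genes, Gbp2 was at 190.0 and 92.9 TPM and Igtp at 185 and 229, and of the regulators, Irf1 was at 168 and 97.9 and Socs1 at 159 and 166. Antiviral genes covered a wide range, with Ifi27l2a at 424 and 481 TPM and Bst2 at 379.6 and 414, but Mx1 at 9.96 and 10.2, Ifit1 at 5.19 and 6.68, Ifit3 at 0.922 and 2.70 and Rsad2 at 1.27 and 1.04. None of the 30 genes with a ratio differed by 2-fold. Over all genes with a ratio, 1.10% were at least 2-fold higher in replicate 4 and 5.47% at least 2-fold lower.

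Genes of other spleen cells were mostly at or near 0, with the exception of those of dendritic cells. Fewer cells of a type and less RNA per cell cannot be told apart in such bulk libraries. Of the B cell genes, Ms4a1 was at 0.0743 and 0.0346 TPM and Pax5 at 0.0260 and 0.0242, and the B cell receptor subunits Cd79a and Cd79b were low (1.42 and 0.587, and 5.94 and 3.44 TPM). Ighm, the heavy chain constant gene (chr12:113418558-113422730, minus strand), was nevertheless at 79.4 and 105 TPM, which was most of the list's sum of 102 and 117 TPM. Of 12 plasma cell genes only Xbp1, which many secretory cells use, was well expressed (108 and 90.3 TPM), and Jchain read 0.365 and 0 TPM and Igkc 0 and 1.21. None of 12 neutrophil genes was detected, and S100a8, S100a9, Camp, Ltf and 4 others had no count in either library. The globin genes Hbb-bs, Hbb-bt and Hba-a2 had no count, and of the erythroid list only the transferrin receptor Tfrc, which dividing cells use, was detected (129.8 and 116 TPM). The NK receptor gene Ncr1 was at 0.149 and 0 TPM and Klrb1c at 0.233 and 0, while Klrk1 (NKG2D), which CD8 T cells also make, was at 35.4 and 33.3. Of 9 CD4 and regulatory T cell genes 5 were detected, with medians of 2.58 and 2.01 TPM and sums of 71.7 and 50.3 TPM. The highest values in that list were 45.2 and 29.1 TPM, and 1 member stood above the median detected gene. The same values were the highest among the listed transcription factors of other lineages. Cxcr5 (13.8 and 13.2 CPM) and Cd40lg (3.44 and 3.24 CPM) were among the detected members. Of the platelet genes only Itga2b was detected (25.6 and 10.6 TPM), with Pf4 and Ppbp at 0. Of the mast cell and basophil genes only Kit was detected (4.77 and 1.92 TPM). Of 4 matched gamma delta T cell genes 2 were detected, namely Trdc (29.8 and 27.4 TPM) and Sox13 (0.959 and 3.57). Trdv4 was at 3.62 and 0.482 TPM, with the gamma chain constant genes Tcrg-C1 at 2.98 and 1.16, Tcrg-C2 at 4.02 and 1.87 and Tcrg-C4 at 4.43 and 7.16. Of the stromal and endothelial genes, Lum was at 4.87 and 7.93 TPM and Pecam1 at 4.09 and 5.08, and Col3a1 and Kdr had no count.

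Dendritic cell genes were clearly present. Of the 19 listed, 17 were detected, and the exceptions, Cd209a and the plasmacytoid marker Siglech, had no count. The class II chaperone gene Cd74 was at 1628 and 512 TPM, and the class II chains followed with H2-Eb1 (517 and 194), H2-Ab1 (348 and 147) and H2-Aa (261 and 97.6). Of the chemokines of activated dendritic cells, Ccl22 was at 466 and 262 TPM and Ccl17 at 181 and 122, and the maturation marker Cd83 was at 176 and 75.9. Itgax (CD11c) was at 84.1 and 22.2 TPM. Genes of the cross-presenting dendritic cell subset were present, with Clec9a at 40.2 and 9.93 TPM and Xcr1 at 21.3 and 7.01, and so were the lineage genes Zbtb46 (14.02 and 4.95) and Flt3 (10.4 and 1.25). All 17 genes were lower in replicate 4. Macrophage and monocyte genes were lower, and 8 of 18 were detected. Of 4 with a ratio, 3 were at least 2-fold lower in replicate 4 (5.47% of all genes). The other, Ly6c2 (4.02 and 14.4 TPM), was at least 2-fold higher there (1.10% of all genes). Hmox1 (chr8:75093621-75100589, plus strand), the heme-degrading enzyme, was at 235 and 60.7 TPM and Cd68 at 55.02 and 19.7, but Adgre1 (F4/80) was at 0.425 and 0.132, Csf1r at 1.93 and 0.700, Lyz2 at 12.7 and 3.88 and C1qa at 1.10 and 0.206.

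**Figure D4:**
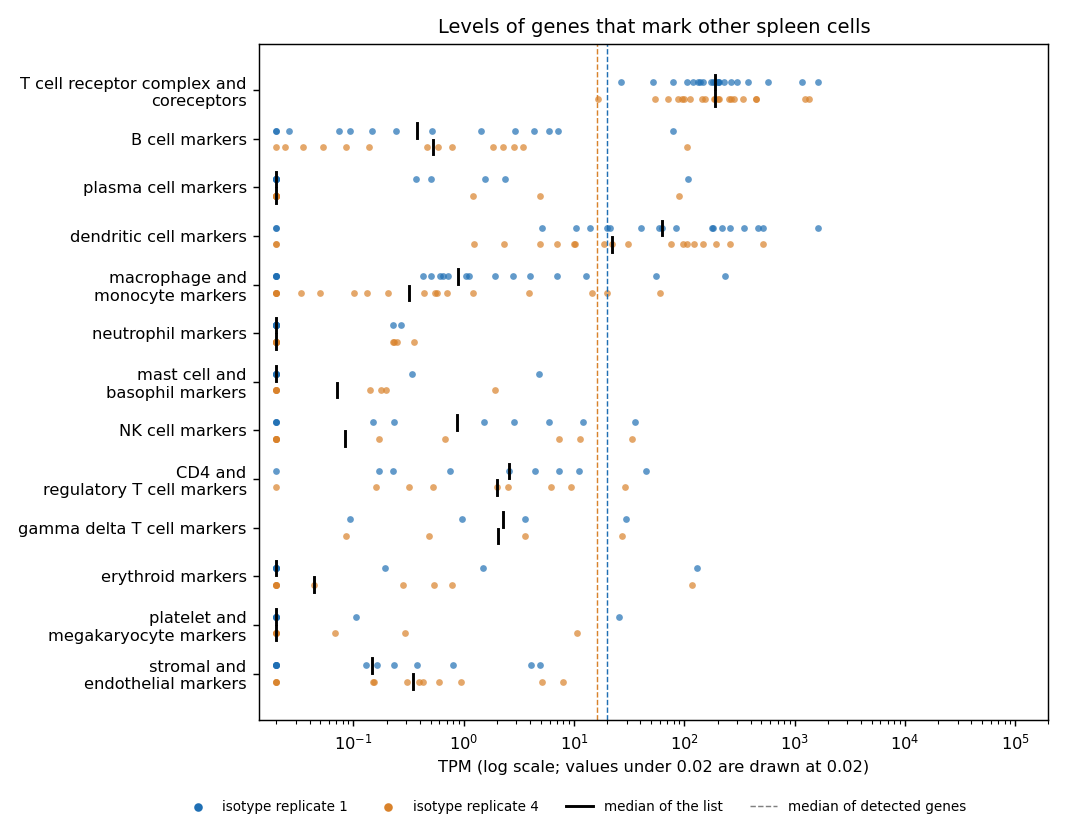
Each point is 1 gene of the marker list named on the y axis, with its TPM on a log x axis, in isotype replicate 1 (blue) and replicate 4 (orange), and values under 0.02 drawn at 0.02; black bars are list medians, dashed lines the medians of all detected genes, and the T cell receptor list is shown on top for scale. Of the lists of other cells, only that of dendritic cells has its median above the dashed lines, 62.6 and 22.2 TPM.

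Between the libraries, 113 of 10227 genes (1.10%) were at least 2-fold higher in replicate 4 and 559 (5.47%) at least 2-fold lower. Of the 17 dendritic cell genes with a ratio, 10 were at least 2-fold lower in replicate 4 and 0 at least 2-fold higher. Their median log2 ratio was −1.17, and it lay between −1.17 and −1.68 under the 4 scalings tried. Flt3 was 7.10-fold higher in replicate 1 (5.003 to 10.3), Clec9a 3.43-fold (2.87 to 4.13), Itgax 3.21-fold (2.91 to 3.56) and Cd74 2.70-fold (2.60 to 2.81). Hmox1 was 3.28-fold higher in replicate 1 (2.97 to 3.63). Gene models without a proper name set aside, the largest ratio towards replicate 1 was that of Tlr3, the receptor for double-stranded RNA, at 7.94-fold (5.32 to 12.3), and the leukotriene gene Alox5ap (7.07-fold), Cd200r1 (6.63-fold) and the phagosome metal transporter Slc11a1 (5.47-fold) were also among the 10 highest there. Ctla2b reached 7.51-fold, with 69.0% of its windows in transcripts of other genes.

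Towards replicate 4 the largest ratio among such named genes was that of Lgals7, the gene of galectin-7, with 9 and 218 counts and a ratio of 26.6-fold (13.7 to 58.8). Stra6, a retinol receptor, followed with 21 and 312 counts and 16.3-fold (10.5 to 26.7), then Tmem176b (8.45-fold) and the membrane protease gene Mmp14 (5.06-fold). Genes that CD8 T cells can express were also among the 10 highest there. Ly6c2, which is also on the macrophage and monocyte list, was 4.22-fold higher (3.06 to 5.93). Il18r1 was 3.68-fold higher (2.94 to 4.64) and Gzmc 3.42-fold (2.29 to 5.23). The intervals cover counting error only. The replicates were too few to say how far such differences exceed the spread between cultures.

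**Figure D5:**
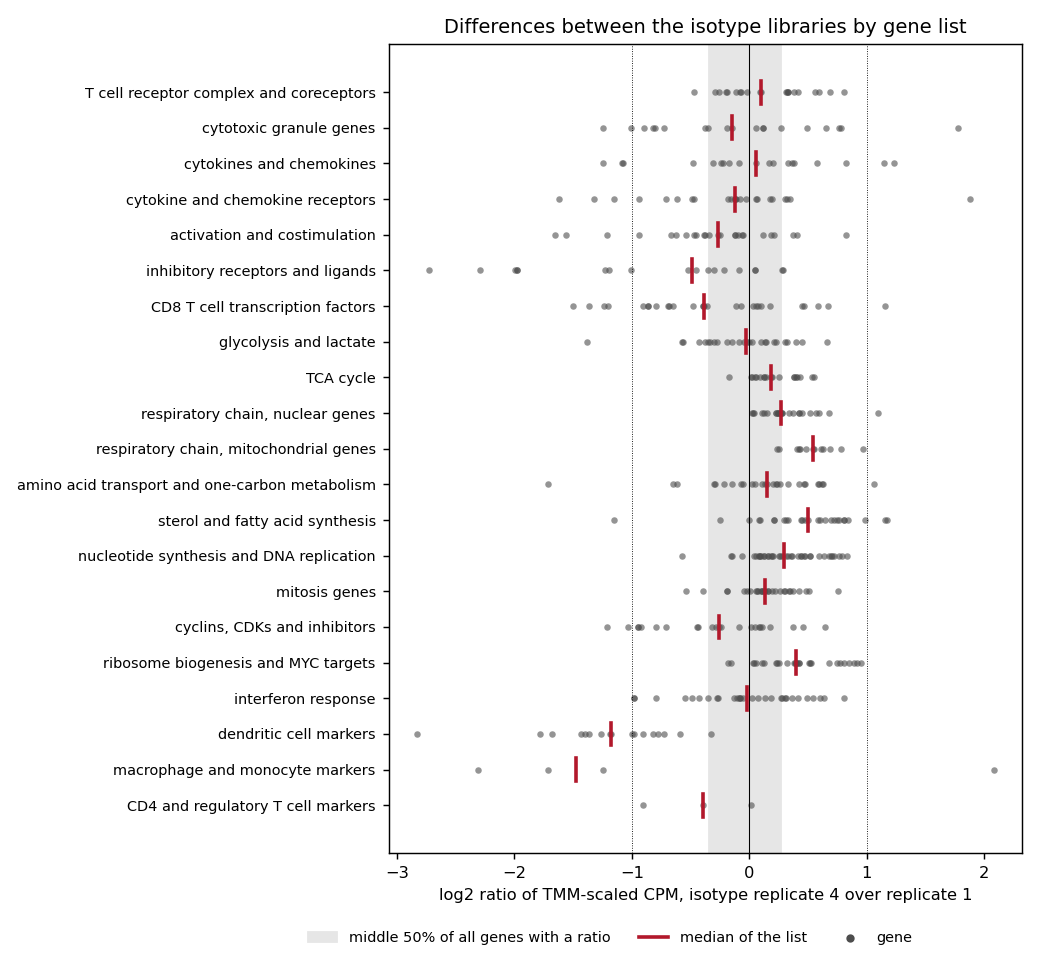
Each grey point is 1 gene, with the log2 ratio of its TMM-scaled CPM, isotype replicate 4 over replicate 1, on the x axis and its list on the y axis; red bars are list medians, the grey band is the middle 50% of all 10227 genes (−0.34 to 0.27), and dotted lines mark 2-fold. The dendritic cell list lies wholly to the left of 0, while mitosis and replication genes lie within the dotted lines.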

How the data were processed

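RNA of OT-I splenocyte cultures was sequenced, and the authors deposited raw counts per gene, 1 table per library. The submitters' processing notes name mm10 and DESeq2. No aligner, counter, strand setting or handling of reads with several matches is stated there or in the labels (not given in the sources used here). Whether counts of overlapping antisense genes were kept apart by strand is therefore unknown. Symbols were matched by identifier to GENCODE M21 (49412 of 49671 genes). The 2 isotype libraries, with 11635669 and 11104184 gene counts, were read with Python 3.11.15, pandas 2.3.3 and scipy 1.17.1. Genes at 1 CPM or more in both are called detected. Computed from the counts were CPM over gene counts without ERCC rows, TPM from the deposited Length column, and ratios of TMM-scaled CPM among genes with a mean of at least 5 CPM. Ratio intervals are exact binomial and intervals on shares are Wilson, both at 95% and for counting error only. The ratio calculation was run on simulated counts that held sampling noise only. Such counts check the arithmetic and cannot show how ratios behave under the larger spread of the real libraries. Windows of 50 bases were searched on both strands in the M21 transcripts. Genes named are the 20 highest by CPM and by TPM, members of 30 lists (606 of 609 genes matched) chosen for level, absence or role, the 10 most unequal named genes in each direction, and the 5 markers. Coordinates are those of the deposited tables. The members and lists were chosen with earlier results of these data known. Alternatives were other scalings (library totals, RLE, ERCC), filters and fold limits, CPM against TPM, and leaving out either library. No gene was tested, since no groups are compared, and the chi-square between the libraries is given without a p-value. Some members of the lists are not reported here.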

Additional observations from a re-analysis of the deposited data

How the results depend on the processing

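The number of detected genes, 12447, stayed between 12377 and 13833 under every other rule, scaling or unit tried, and was 12936 and 13070 in the libraries taken singly. The 699 genes holding 50% of counts were 598 and 785 in the single libraries, 166 by TPM, and 437 by TPM without mitochondrially encoded and ribosomal RNA-like genes, an alternative chosen after seeing the data. The numbers of genes 2-fold apart depended on scaling and filter. Genes higher in replicate 4 numbered 113, and 18 with ERCC scaling, 4446 with no filter on low counts, 424 with a mean of at least 1 CPM, 33 with at least 20 CPM and 16 at 3-fold. Genes lower in replicate 4 numbered 559, and 1716, 4345, 932, 283 and 132 under the same alternatives in that order. The stricter and looser filters and the 3-fold limit test fewer or more genes or a larger difference by construction. ERCC scaling moves every ratio by the same amount, and whether the spike-ins or the other scalings track the RNA of the cultures was not tested. Under ERCC scaling 12 of 32 list medians of the log2 ratio changed sign, and 1 did under library totals. Of 130 named genes, 22 moved by more than their spread between the libraries when ERCC counts entered the total. That change lowers every gene of a library by the same share, 4.03% in replicate 1 and 5.38% in replicate 4. The 22 are therefore genes whose libraries agree closely, Gzmb, Lag3 and Mki67 among them, and not genes more sensitive to processing. List medians as CPM in place of TPM moved in 17 of 30 lists. With 11635669 and 11104184 counts, genes under 0.270 CPM cannot be told from absent ones. No paired analysis was possible because no groups were compared, and isotype replicates 1 and 4 were described alone.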
